A study of Drosophila melanogaster with 34 samples.

Results

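The transcripts of the mitochondrial genome were followed in Drosophila melanogaster embryos whose father or mother carried a mutation in aubergine (aub). The members were all genes whose FlyBase symbol starts with mt:, which gave 13 protein genes of the 13931 genes in the embryo count table. The name column of that table held 0 symbols written in this form (8 of the 13 rows carried RefSeq names such as COX1 and 5 an identifier), so the rows were matched through their FlyBase identifiers. The symbol table holds 38 mt: symbols, of which 25 (22 tRNAs, 2 rRNAs and 1 other) matched no row and were not analysed here. Of the 46612 sense and 37771 antisense rows of small RNA counts, 0 matched the rule, so small RNA from the mitochondrial genome was not analysed here either.

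The series has 34 samples, of which 22 are small RNA samples and 12 are the embryo libraries used below. The embryo libraries were 5 labelled paternal aub, 2 labelled maternal aub and 5 labelled wild type (WT). All 12 are labelled total RNA, and whether messenger RNA was selected from it is not known here. The column names mark a batch 2, which held 2 paternal aub, 2 maternal aub and 2 WT libraries, and the other 6 (3 paternal aub and 3 WT) are called batch 1. The labels give neither the aub allele, the embryo's own genotype, a defined embryo stage nor the number of embryos per library. What the batch was is not given. All 12 column names begin with Old, in paternal aub, maternal aub and WT alike, so this prefix does not separate the groups. Whether it refers to embryo age is left unexplained. The aub gene encodes a PIWI-clade Argonaute protein that binds the small RNAs called piRNAs. Values below are listed in the order of the replicate numbers.

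Mitochondria keep a small circular genome of their own, inherited through the egg, whose protein genes all encode membrane subunits of the oxidative phosphorylation machinery. It also encodes the rRNAs and tRNAs of mitochondrial translation, while the remaining subunits and the proteins that copy, transcribe and translate it are encoded in the nucleus. Fly embryos start with mitochondria and mitochondrial RNA laid down in the egg, and long transcripts of both strands are cut at tRNA sequences into messengers, a few of which carry a pair of reading frames.

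By role, 7 of the 13 genes encode subunits of complex I, the NADH dehydrogenase (mt:ND1, mt:ND2, mt:ND3, mt:ND4, mt:ND4L, mt:ND5 and mt:ND6). mt:Cyt-b encodes cytochrome b of complex III, mt:CoI, mt:CoII and mt:CoIII encode the core of complex IV, the cytochrome c oxidase, and mt:ATPase6 and mt:ATPase8 encode membrane subunits of the ATP synthase. In the RefSeq annotation (Release 6 plus ISO1 MT, the assembly called dm6 in the submitters' processing notes) they lie on chromosome MT as uninterrupted genes. mt:CoI (FBgn0013674) spans positions 1474 to 3009, mt:CoIII (FBgn0013676) 4736 to 5524, mt:Cyt-b (FBgn0013678) 10499 to 11635 and mt:ND1 (FBgn0013679) 11721 to 12659. mt:ND1, mt:ND4, mt:ND4L and mt:ND5 are read from the minority strand and the other 9 from the majority strand. Reading frames touch at 3 places: mt:ATPase8 (3907 to 4068) and mt:ATPase6 (4062 to 4736) share 7 bases, mt:ATPase6 and mt:CoIII share 1 base, and mt:ND4 (8207 to 9545) and mt:ND4L (9545 to 9835) share 1 base. The counting of reads that cover a pair of genes, of reads with more than 1 position (such as nuclear copies of mitochondrial sequence) and of strand is not stated, so values of overlapping neighbours are uncertain as single rows.

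Sequencing depth, as the sum of counts over all genes, ran from 4634192 to 16289732 for paternal aub, from 4147539 to 12274261 for maternal aub and from 1690431 to 8816293 for WT libraries. A limit of 3 counts per library corresponded to 0.184 to 1.77 CPM (counts scaled to library depth). The aub transcript itself was at 4.92, 4.22 and 3.95 CPM in paternal aub against 18.5, 17.0 and 53.5 CPM in WT libraries of batch 1, and at 7.08 and 15.1 CPM in paternal aub, 6.61 and 2.41 CPM in maternal aub and 4.49 and 5.37 CPM in WT libraries of batch 2; since the mutation was in a parent, this does not check the labels. Markers of early embryos and maternal transcripts were bcd, osk, hb, gcl, pgc and zld (6 of the 7 listed were in the table). They summed to 175 to 274 CPM in paternal aub and 880 to 1810 CPM in WT libraries of batch 1. In batch 2 the sums were 426 to 442, 421 to 426 and 367 to 387 CPM in paternal aub, maternal aub and WT libraries. The members of this sum went different ways. Between the WT groups hb, osk, pgc and zld were called lower in batch 2 and 1 other marker higher. In that contrast 40.1% of all tested genes were called. These 4 averaged 7.33, 17.5, 12.8 and 108 CPM in paternal aub libraries of batch 1. They averaged 6.13, 8.80, 0.692 and 80.4 CPM in WT libraries of batch 2. Late embryo markers (5 of 5, muscle and cuticle genes among them) were at 24569 to 33998 CPM in paternal aub and 12836 to 26274 CPM in WT libraries of batch 1, and at 20476 to 24331 CPM in batch 2. Hemocyte markers (3 of 3) were at 12299 to 15387 CPM in paternal aub and 4389 to 6410 CPM in WT libraries of batch 1, and at 4603 to 7237 CPM in batch 2. Yolk protein and eggshell markers (5 of 5) stayed between 0.592 and 22.3 CPM. Testis and sperm markers (8 of 10 in the table) were at 0.723 to 6.20 CPM in 11 libraries and at 29.7 CPM in WT batch 1 replicate 1; no marker in any list was at 0 in all libraries. In WT batch 1 replicate 1 the testis marker sum came mostly from loopin-1 (8.11 CPM), S-Lap1 (7.19) and S-Lap7 (9.04). Mst87F, Mst84Da and ocn were also at their highest there. Mst77F (0.695 CPM) and dj (0.232) were not, being higher in paternal aub batch 1 replicate 1 (1.14 and 0.326). WT batch 1 replicate 1, with these testis transcripts, and WT batch 2 replicate 1, the shallowest library, also stood apart in their mixture of mitochondrial transcripts.

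The 13 genes together took up 0.245 to 2.39% of assigned counts, with the highest share in a paternal aub library and the lowest in a WT library. In batch 1 the summed share was 0.931, 0.986 and 0.419% in paternal aub against 0.245, 1.01 and 0.562% in WT libraries, which overlap widely. In batch 2 it was 1.40 and 2.39% in paternal aub against 1.37 and 0.925% in WT libraries, so both paternal aub libraries were above both WT libraries, the first of them by a narrow margin. The maternal aub libraries, at 0.870 and 0.824%, were below both WT libraries of the same batch. In bulk libraries, fewer mitochondria, fewer transcripts per mitochondrion and more nuclear messenger RNA cannot be told apart.

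**Figure D1:**
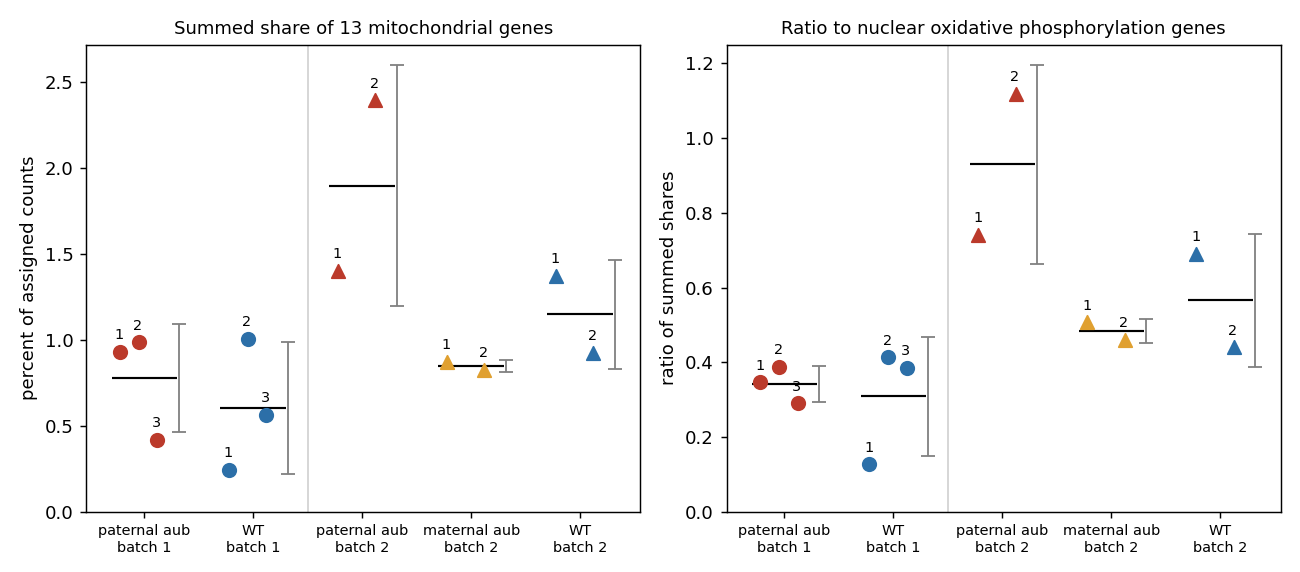
Summed counts of the 13 mitochondrial genes per embryo library, in percent of all assigned counts (left) and as a ratio to the summed counts of 91 nuclear genes of oxidative phosphorylation (right). Points are libraries with their replicate number, horizontal lines are group means and grey bars are the SD beside them; the paternal aub libraries of batch 2 are the highest in both panels, and batch 1 libraries lie at ratios of 0.127 to 0.413.

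The difference between the paternal aub and WT shares did not pass the permutation test over both batches. Within a single batch that test cannot reach a p under 0.05, so it does not decide there. On the log2 scale the within-batch difference over both batches was 0.57, a 1.49-fold higher share (exact two-sided permutation test within batches, p = 0.25, 5 against 5 libraries, smallest possible p = 0.0167). Within batch 1 the difference was 0.49 (means 0.779 ± 0.312% in paternal aub and 0.605 ± 0.383% in WT libraries, SD, n = 3 each, exact p = 0.7, where 0.1 is the smallest possible), and within batch 2 it was 0.70 (1.90 ± 0.70% in paternal aub and 1.15 ± 0.317% in WT libraries, SD, n = 2 each, exact p = 0.333, the smallest possible). The difference of the group means over both batches changed when libraries were left out. It was 0.19 without WT batch 1 replicate 1 and 0.28 without paternal aub batch 2 replicate 2. It was 0.91 without paternal aub batch 1 replicate 3 and 0.38 without both WT libraries numbered 1. Leaving out libraries made the batches unequal between the groups, so these values also take in the difference between batches and are not within-batch differences. The maternal aub share was 0.752-fold that of WT in batch 2 (log2 difference -0.41, exact p = 0.333, the smallest possible for 2 against 2), and this difference was -0.13 without WT batch 2 replicate 1 and -0.70 without WT batch 2 replicate 2. Paternal aub libraries had 2.16-fold the share of maternal aub libraries in batch 2 (log2 difference 1.11, exact p = 0.333, again the smallest possible).

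Ordered by group mean, the summed share was 1.90% in paternal aub batch 2, 1.15% in WT batch 2, 0.847% in maternal aub batch 2, 0.779% in paternal aub batch 1 and 0.605% in WT batch 1. The ranges of neighbours in this order overlapped, except that both paternal aub libraries of batch 2 were above both WT libraries of batch 2, and those above both maternal aub libraries. Relative to the nuclear genes for the same machinery (91 genes in the table), mitochondrial counts came to ratios of 0.347, 0.388 and 0.290 in paternal aub against 0.127, 0.413 and 0.386 in WT libraries of batch 1. In batch 2 the ratio was 0.741 and 1.12 in paternal aub, 0.507 and 0.461 in maternal aub and 0.691 and 0.441 in WT libraries. All 6 batch 2 libraries therefore had a higher ratio (lowest 0.441) than all 6 batch 1 libraries (highest 0.413). The nuclear genes themselves took up 1.44 to 2.69% of counts in batch 1 and 1.72 to 2.14% in batch 2.

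The complex IV genes held most of the mitochondrial counts, 75.8 to 91.1% of them in each library. mt:CoI, the catalytic subunit, was the most abundant member per kilobase in 12 of 12 libraries, with a median of 2849 CPM per kilobase, followed by mt:CoIII (2116) and mt:CoII (1678). In batch 1 mt:CoI was at 4622, 5824 and 2506 CPM in paternal aub against 1689, 4826 and 2370 CPM in WT libraries. In batch 2 it was at 6475 and 9777 CPM in paternal aub, 3565 and 3810 CPM in maternal aub and 6846 and 4131 CPM in WT libraries. Paternal aub and WT libraries overlapped in both batches. The maternal aub libraries were below both WT libraries of their batch, where 47.8% of all tested genes did not overlap.

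mt:CoIII, a subunit next to the catalytic core, stood at 2093, 2039 and 818 CPM in paternal aub against 235, 1742 and 825 CPM in WT libraries of batch 1. Batch 2 gave 2844 and 4668 CPM in paternal aub, 1426 and 1476 CPM in maternal aub and 3033 and 1597 CPM in WT libraries. mt:CoII, which carries the entry site for electrons from cytochrome c, was at 1606, 1669 and 511 CPM in paternal aub against 87.7, 1309 and 745 CPM in WT libraries of batch 1, and at 1663 and 2275 CPM in paternal aub, 989 and 949 CPM in maternal aub and 1991 and 956 CPM in WT libraries of batch 2. For both genes WT batch 1 replicate 1 was the lowest of the 12 libraries, and the maternal aub libraries were close to each other.

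Cytochrome b, the mitochondrially encoded subunit of complex III, did not overlap between paternal aub and WT in batch 2, as was so for 38.8% of all tested genes, and overlapped in batch 1. The difference between the batches was itself not called (0.75 ± 0.79, SE). mt:Cyt-b was at 774, 910 and 341 CPM in paternal aub against 133, 714 and 397 CPM in WT libraries of batch 1. It was at 993 and 2141 CPM in paternal aub, 542 and 393 CPM in maternal aub and 594 and 551 CPM in WT libraries of batch 2. Both paternal aub libraries of batch 2 were above all 10 other libraries.

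Among the ATP synthase genes, mt:ATPase6, part of the proton channel, was at 447, 241 and 164 CPM in paternal aub against 23.2, 450 and 164 CPM in WT libraries of batch 1. In batch 2 it was at 307 and 1036 CPM in paternal aub, 352 and 200 CPM in maternal aub and 90.3 and 455 CPM in WT libraries, so that the WT libraries spanned both other groups except for the 1036 CPM library. mt:ATPase8 had only 0 to 18 counts per library and was the 1 member that did not pass the low-count filter. Although its reading frame overlaps that of mt:ATPase6 and both are known to be carried on 1 messenger, its level per kilobase was 0 to 4.43% of that of mt:ATPase6.

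Of the minority strand genes of complex I, mt:ND1, mt:ND4 and mt:ND5 had similar levels and mt:ND4L was low. mt:ND1 was at 316, 350 and 111 CPM in paternal aub against 266, 332 and 231 CPM in WT libraries of batch 1, and at 322 and 572 CPM in paternal aub, 254 and 195 CPM in maternal aub and 209 and 247 CPM in WT libraries of batch 2. Both paternal aub libraries of batch 2 were above both WT and both maternal aub libraries of that batch, while batch 1 libraries overlapped. Of all tested genes, 38.8% did not overlap between paternal aub and WT in batch 2, and 46.5% between paternal and maternal aub. mt:ND4 ranged from 131 to 304 CPM in paternal aub and 84.2 to 271 CPM in WT libraries of batch 1, and was at 215 and 655 CPM in paternal aub, 245 and 180 CPM in maternal aub and 104 and 305 CPM in WT libraries of batch 2. mt:ND5 ranged from 164 to 396 CPM in paternal aub and 73.8 to 348 CPM in WT libraries of batch 1, and was at 262 and 560 CPM in paternal aub, 338 and 222 CPM in maternal aub and 135 and 406 CPM in WT libraries of batch 2. For both genes the groups overlapped in each batch. mt:ND4L, which is known to share a messenger with mt:ND4, had 0 to 116 counts per library and 0 to 22.6% of the level of mt:ND4 per kilobase.

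The majority strand genes of complex I were low. mt:ND2 was at 136, 61.9 and 39.9 CPM in paternal aub against 11.1, 112 and 46.5 CPM in WT libraries of batch 1, and at 36.2 and 74.5 CPM in paternal aub, 90.3 and 61.4 CPM in maternal aub and 17.4 and 119 CPM in WT libraries of batch 2. mt:ND6 was at 38.2, 17.8 and 9.16 CPM in paternal aub against 0.988, 32.9 and 12.3 CPM in WT libraries of batch 1, and at 3.24 and 12.6 CPM in paternal aub, 20.0 and 11.0 CPM in maternal aub and 4.49 and 36.2 CPM in WT libraries of batch 2. mt:ND3 spanned 1.12 to 80.0 CPM, with 2 to 1427 counts per library. All 3 genes overlapped between paternal aub and WT libraries in both batches.

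**Figure D2:**
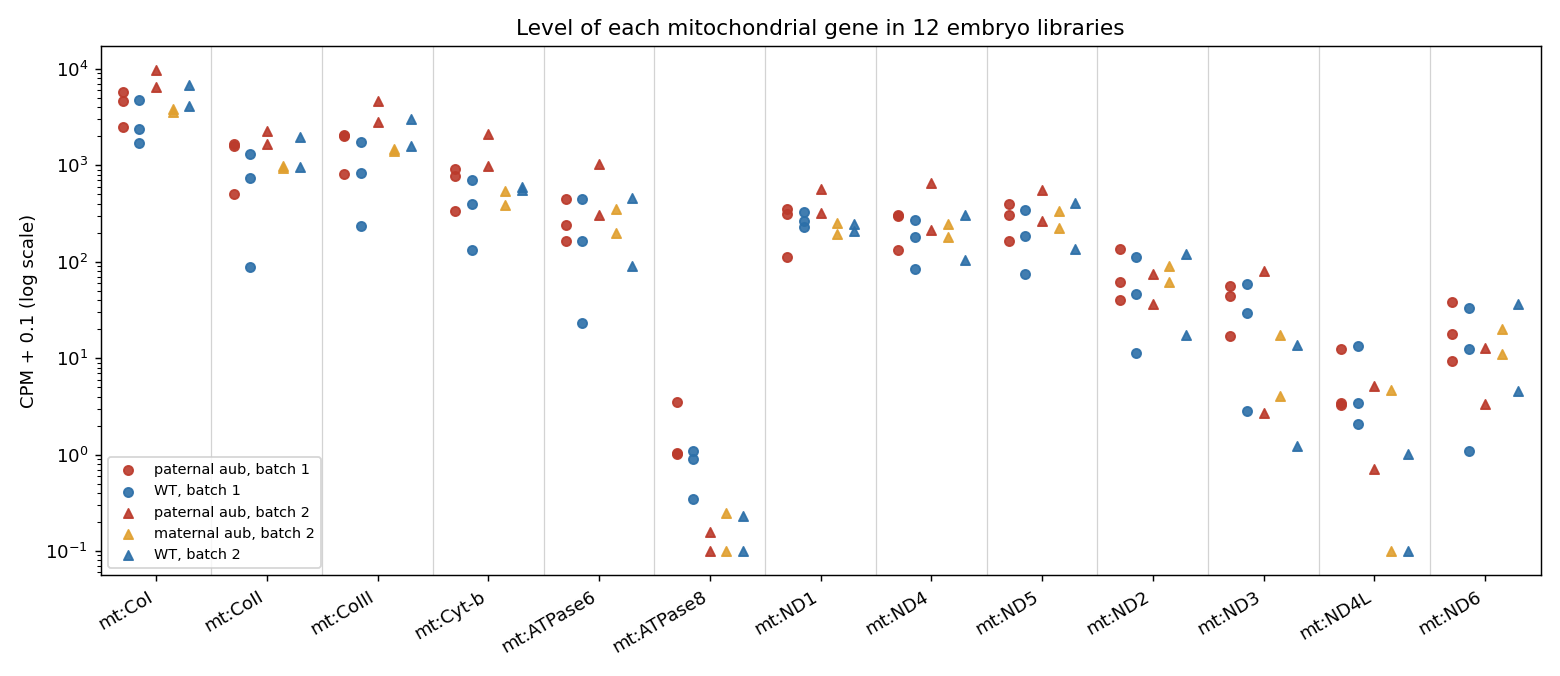
Level of each of the 13 mitochondrial genes in the 12 embryo libraries, in CPM plus 0.1 on a log axis, ordered by complex. Circles are batch 1 and triangles batch 2. Within a gene the groups run from paternal aub and WT of batch 1 to paternal aub, maternal aub and WT of batch 2. Only mt:Cyt-b and mt:ND1 have both paternal aub triangles above both WT triangles. Of all tested genes, 38.8% did not overlap in that comparison, in either direction.

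Members differed in their spread across the 12 libraries. The highest CPM was 5.16 times the lowest for mt:ND1, 5.79 times for mt:CoI, 16.1 times for mt:Cyt-b and 44.6 times for mt:ATPase6. The same library, paternal aub batch 2 replicate 2 (also the deepest), held the highest CPM of 9 of 12 members, and WT batch 1 replicate 1 the lowest CPM of 9 of 12. Over all libraries the order per kilobase was mt:CoI, mt:CoIII, mt:CoII, mt:Cyt-b, mt:ATPase6, mt:ND1, mt:ND4, mt:ND5, mt:ND2, mt:ND3, mt:ND6, mt:ND4L and mt:ATPase8 by median. mt:CoIII was at rank 2 in 11 libraries and mt:CoII at rank 3 in 10. The levels of mt:ATPase6, mt:ND1, mt:ND4 and mt:ND5 overlapped, with medians of 406, 277, 172 and 164 CPM per kilobase.

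The mixture of transcripts, which does not depend on how much mitochondrial RNA a library held, was similar in 10 libraries for the complex IV genes. The remaining pair, the WT libraries numbered 1, was set apart after the values were seen, so the ranges of the 10 do not test a difference. mt:CoI made up 42.8 to 52.0% of mitochondrial counts in those 10 libraries, mt:CoII 10.4 to 14.9% and mt:CoIII 15.9 to 21.7%. The low members varied widely within the same 10 libraries, mt:ND6 from 0.0247 to 0.411% and mt:ND3 from 0.0200 to 0.570% of mitochondrial counts. In WT batch 1 replicate 1 mt:CoI made up 64.7%, mt:CoII 3.36% and mt:CoIII 9.01%, while mt:ND1 made up 10.2%, against 2.30 to 4.45% in those 10 libraries. In that library mt:CoII stood at 11.6% of mt:CoI per kilobase, against 45.7 to 77.9% in the other 11. In WT batch 2 replicate 1 mt:CoI (52.6%), mt:CoII (15.3%) and mt:CoIII (23.3%) were each only a little above the range of those 10 libraries. Together the complex IV genes made up 91.1% of mitochondrial counts there. In the same library mt:ATPase6 (0.694%), mt:ND1 (1.60%), mt:ND4 (0.801%) and mt:ND5 (1.04%) were all at their lowest shares. Minority strand genes together made up 16.3% in WT batch 1 replicate 1, 3.44% in WT batch 2 replicate 1 and 6.10 to 11.5% elsewhere. Whether the testis transcripts of WT batch 1 replicate 1 or the depth of WT batch 2 replicate 1 has a part in these mixtures was not tested.

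**Figure D3:**
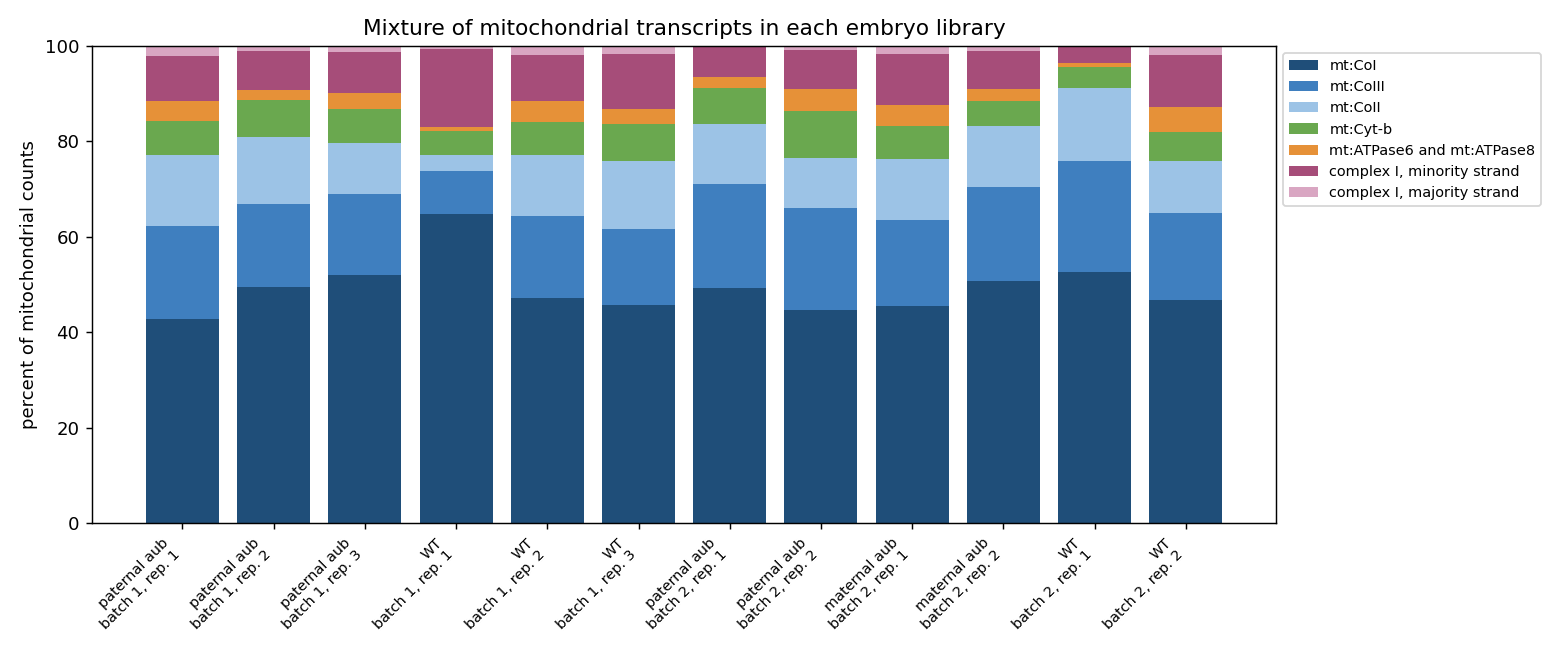
Mixture of mitochondrial transcripts in each embryo library as stacked bars, in percent of the library's mitochondrial counts. WT batch 1 replicate 1 has the tallest mt:CoI segment (64.7%) and the shortest mt:CoII segment (3.36%), and WT batch 2 replicate 1 has the largest complex IV total (91.1%).

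The groups overlapped in their complex IV share. These genes averaged 79.2 ± 2.01% of mitochondrial counts in paternal aub and 76.7 ± 0.693% in WT libraries of batch 1 (SD, n = 3 each), and 80.1 ± 5.07% in paternal aub, 79.7 ± 4.86% in maternal aub and 83.5 ± 10.8% in WT libraries of batch 2 (SD, n = 2 each). Cytochrome b made up 7.57 and 9.80% in paternal aub, 6.91 and 5.24% in maternal aub and 4.56 and 6.25% in WT libraries of batch 2. Its share was 7.16, 7.73 and 7.07% in paternal aub against 5.10, 6.99 and 7.66% in WT libraries of batch 1, so paternal aub was above both other groups in batch 2, maternal aub and WT overlapped there, and paternal aub and WT overlapped in batch 1. mt:ND6, which ends 3 bases before mt:Cyt-b on the same strand, had counts equal to 0.326 and 0.587% of those of mt:Cyt-b in paternal aub, 3.68 and 2.79% in maternal aub and 0.755 and 6.58% in WT libraries of batch 2. In batch 1 this value was 4.94, 1.95 and 2.69% in paternal aub against 0.742, 4.61 and 3.10% in WT libraries. Values under 1% were those of both paternal aub libraries of batch 2 and of the WT libraries numbered 1.

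For paternal aub against WT embryos, the contrast that asks whether a father's aub mutation is followed by a change in his offspring, no mitochondrial gene passed the threshold (adjusted p under 0.05, edgeR quasi-likelihood test with Benjamini-Hochberg adjustment over 10371 genes). In batch 1, 0 of the 12 tested members were called, where 43.5% of all tested genes were, and DESeq2 also called 0. An unadjusted p under 0.05 was found for 0 members, against 5365 of all 10371 tested genes. The groups overlapped for all 12, where 45.2% of all tested genes did not overlap. Of the 12, 10 had a positive log2 fold change, with a median of 0.46 against 0.07 for all tested genes. mt:CoI had a log2 fold change of 0.54 ± 0.38 (SE), mt:CoIII of 0.82 ± 0.56 and mt:Cyt-b of 0.70 ± 0.50, and the smallest adjusted p of any member was 0.254. In the same contrast early embryo markers were lower in paternal aub (3 of 6 called, median -2.38), hemocyte markers were higher (3 of 3 called, median 1.62) and late embryo markers mostly higher (3 of 5 called higher, 1 lower, median 0.76), and their part in the mitochondrial values was not tested.

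The batch 1 result depended on WT batch 1 replicate 2, the WT library of that batch with the most mitochondrial RNA. Without it, 5526 of 10298 tested genes passed, 3 members among them. The 3 members were mt:CoI at 1.09 (edgeR adjusted p = 0.0208), mt:CoIII at 1.64 (adjusted p = 0.0181) and mt:Cyt-b at 1.35 (adjusted p = 0.0316). WT batch 1 replicate 1 then makes up 1 of the 2 WT libraries left. Over all settings tried, the adjusted p of these 3 members went up to 0.656, 0.567 and 0.679. Without WT batch 1 replicate 1 the log2 fold changes were 0.26 for mt:CoI, 0.36 for mt:CoIII and 0.28 for mt:Cyt-b, and the median of the members was 0.05, with 6 of 12 positive. The median was 0.10, also with 6 of 12 positive, without paternal aub batch 1 replicate 1, 0.79 without paternal aub batch 1 replicate 3 and 1.32 without WT batch 1 replicate 2.

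In batch 2, 0 of 12 members were called by edgeR, where 0.0193% of tested genes were, and 0 by DESeq2. An unadjusted p under 0.05 was found for 228 of all 10371 tested genes and for 2 members. These were mt:Cyt-b, with a log2 fold change of 1.45 ± 0.62 (SE; 95% interval 0.12 to 2.79), and mt:ND1, with 0.97 ± 0.45 (0.03 to 1.92); both had an edgeR adjusted p of 1. Both were also the 2 members whose paternal aub and WT values did not overlap, in a comparison where 38.8% of all tested genes did not overlap. The median over members was 0.84 against 0.00 for all genes, with 10 of 12 positive. mt:ND6 at -1.40 ± 1.14 and mt:ND2 at -0.34 ± 0.95 were the exceptions. Without paternal aub batch 2 replicate 2 the median was 0.07, with 7 of the 13 members tested in that fit positive, and the values were 0.80 for mt:Cyt-b and 0.50 for mt:ND1. Without WT batch 2 replicate 2 the median was 1.61. Early embryo markers (6 of 6 positive, median 1.43) and fat body and ovary markers (4 of 4 tested positive, median 3.23) had positive values in the same contrast, with 0 called, and their part was not tested. The fat body and ovary values rest on few counts. Their sum was 0.592 to 2.20 CPM in WT and 2.37 to 8.47 CPM in paternal aub libraries, and 3 counts equal 1.77 CPM in WT batch 2 replicate 1.

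Averaged over both batches, 0 of 12 members were called by edgeR, where 14.5% of tested genes were. An unadjusted p under 0.05 was found for 3203 of all 10371 tested genes and for 1 member. This was mt:Cyt-b, with a log2 fold change of 1.08 ± 0.40 (SE; 95% interval 0.22 to 1.93) and an edgeR adjusted p of 0.0858. DESeq2 called it (1.07, adjusted p = 0.0303), where it called 1902 of 13215 genes. Across the settings tried the log2 fold change of mt:Cyt-b was positive each time, with adjusted p from 0.0102 to 0.319. The other complex IV and V genes had log2 fold changes of 0.55 ± 0.30 for mt:CoI, 0.62 ± 0.57 for mt:CoII, 0.76 ± 0.44 for mt:CoIII and 0.85 ± 0.69 for mt:ATPase6. In complex I they were 0.44 ± 0.29 for mt:ND1, 0.77 ± 0.41 for mt:ND4, 0.55 ± 0.42 for mt:ND5, 0.06 ± 0.61 for mt:ND2, 1.30 ± 0.89 for mt:ND3, 1.04 ± 0.92 for mt:ND4L and -0.48 ± 0.73 for mt:ND6. The median over members was 0.69, against 0.03 for all genes, and 11 of 12 were positive. It depended on single libraries: it was 0.23 (8 of 13 positive) without paternal aub batch 2 replicate 2 and 1.07 (13 of 13) without WT batch 2 replicate 2. It was 0.48 without WT batch 1 replicate 1, 0.49 without WT batch 2 replicate 1 and 0.37 without both. With both batches pooled, 0 members had paternal aub and WT values that did not overlap, where 1.96% of all tested genes did not.

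No mitochondrial gene passed the test of whether the paternal aub difference itself differed between batches. The difference of the batch 2 and batch 1 fold changes was called for 0 of 12 members by edgeR and 0 by DESeq2, where edgeR called 20.2% of all tested genes. With an unadjusted p under 0.05 there were 0 members, against 3470 of all 10371 tested genes. For mt:Cyt-b it was 0.75 ± 0.79 (SE; 95% interval -0.94 to 2.45), and for mt:ND1 1.07 ± 0.57 (-0.15 to 2.29).

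**Figure D4:**
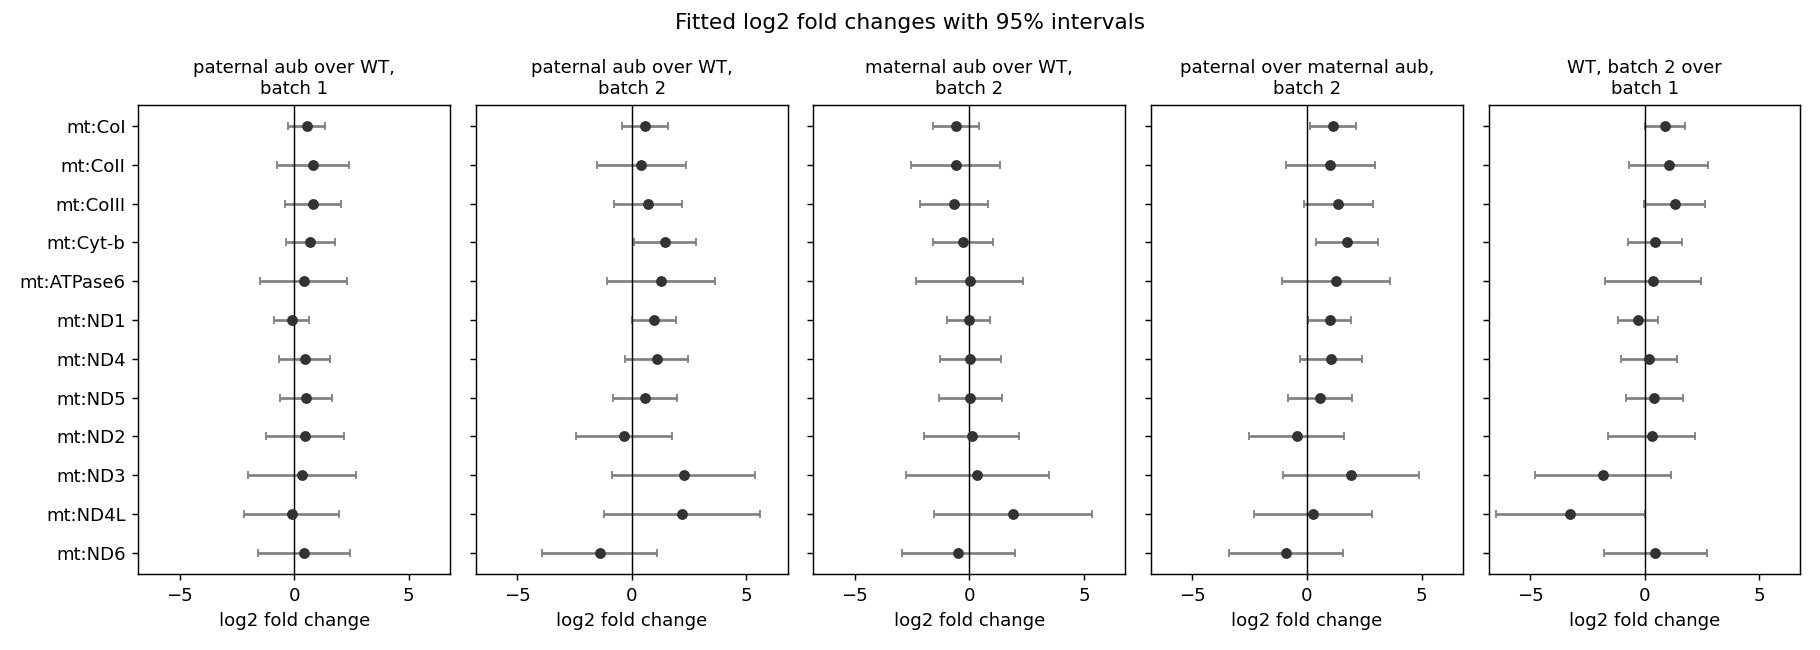
Fitted log2 fold changes of the 12 tested mitochondrial genes in 5 comparisons, with 95% intervals as bars. Most points lie right of 0 in the paternal aub comparisons with medians of 0.46 and 0.84, the maternal aub comparison is centred near 0 (median -0.01), and 0 genes passed the adjusted threshold in any panel.

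For maternal aub against WT embryos of batch 2, 0 of 12 members were called by edgeR and 0 by DESeq2, where edgeR called 0.0675% of all tested genes. An unadjusted p under 0.05 was found for 0 members, against 226 of all 10371 tested genes. The median log2 fold change was -0.01, with 6 of 12 positive. mt:CoI, mt:CoIII and mt:Cyt-b had both maternal aub values below both WT values, where 47.8% of all tested genes did not overlap. Their log2 fold changes were -0.57 ± 0.47 (95% interval -1.57 to 0.42), -0.67 ± 0.68 and -0.29 ± 0.61 (SE). Without WT batch 2 replicate 2, 9 of the 13 members then tested were positive with a median of 1.07, and without WT batch 2 replicate 1, 2 of 13 were, with a median of -0.29, so the sign of the list depended on which WT library was kept. Without maternal aub batch 2 replicate 1, 0 of 13 were positive, with a median of -0.54, and without replicate 2, 8 of 13 were, with a median of 0.25. mt:CoI was at -0.16 without WT batch 2 replicate 1.

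Paternal aub embryos were also set against maternal aub embryos of the same batch, which share no libraries. edgeR called 0 of 12 members, as it did 0% of all tested genes, and DESeq2 also called 0 members. An unadjusted p under 0.05 was found for 230 of all 10371 tested genes and for 3 members. These were mt:Cyt-b with a log2 fold change of 1.74 ± 0.63 (SE; 95% interval 0.40 to 3.09), mt:CoI with 1.14 ± 0.47 (0.14 to 2.14) and mt:ND1 with 1.00 ± 0.44 (0.05 to 1.94). For these 3 and for mt:CoII and mt:CoIII, both paternal aub values were above both maternal aub values, where 46.5% of all tested genes did not overlap. mt:CoII had 1.02 ± 0.88 and mt:CoIII 1.37 ± 0.69. When only these 4 libraries entered the fit, mt:CoII passed at 1.01 (edgeR adjusted p = 0.0307; over all settings up to 1). Without paternal aub batch 2 replicate 2 the median over members was 0.02, against 1.03 with it.

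Between the WT groups, batch 2 against batch 1, 0 of 12 members were called by edgeR and 0 by DESeq2, although edgeR called 40.1% of all tested genes. With an unadjusted p under 0.05 there were 0 members, against 5109 of all 10371 tested genes. mt:CoI was at 0.89 ± 0.42 (SE, edgeR adjusted p = 0.103), mt:CoIII at 1.31 ± 0.61 (adjusted p = 0.104) and mt:ND4L at -3.24 ± 1.49 (adjusted p = 0.102). mt:ND4L was at 0 and 0.916 CPM in batch 2 (0 and 7 counts) against 1.98, 13.3 and 3.32 CPM in batch 1 (8, 116 and 10 counts). Its values therefore rest on few counts, and 3 counts equal 1.77 CPM in WT batch 2 replicate 1. mt:ND4L was the 1 member without overlap, in a comparison where 62.5% of all tested genes did not overlap. Without WT batch 1 replicate 2, mt:CoI (1.43, edgeR adjusted p = 0.00799) and mt:CoIII (2.12, adjusted p = 0.00745) passed, in a contrast where the main fit called 40.1% of all tested genes. Over all settings the adjusted p of mt:CoI and mt:CoIII went up to 0.829 and 0.742. The comparisons of paternal and of maternal aub with WT share the WT libraries of batch 2, so their values are not independent.

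The nuclear genes that serve mitochondria were compared in paternal aub against WT of batch 1, where 43.5% of all tested genes were called. Of 21 tested genes for upkeep and expression of the mitochondrial genome, 4 fell and 1 rose in paternal aub against WT, with a median log2 fold change of -0.19. PolG1, the mitochondrial DNA polymerase, was at 8.70, 10.5 and 6.95 CPM in paternal aub against 31.9, 14.8 and 25.6 CPM in WT libraries (-1.45 ± 0.32, edgeR adjusted p = 0.00201). mtSSB, the single-strand DNA binding protein of mitochondria, was lower by -0.95 ± 0.31 (adjusted p = 0.0212), as were mTerf5, of the transcription termination factor family (-1.03 ± 0.30, adjusted p = 0.0130), and mldr (-1.28 ± 0.37, adjusted p = 0.0113). All PolG1 values in paternal aub libraries were below all WT values of that batch, where 45.2% of all tested genes did not overlap. In batch 2 PolG1 was at 7.08 and 9.03 CPM in paternal aub against 8.42 and 7.07 CPM in WT libraries, and the difference between batches itself was called (1.55 ± 0.51, adjusted p = 0.0455), as it was for 20.2% of all tested genes.

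Of 75 tested nuclear subunits of oxidative phosphorylation, 5 rose and 0 fell in paternal aub against WT in batch 1, in a contrast where 43.5% of all tested genes were called. Of the 75, 64 were positive with a median of 0.35, against 53.1% of all tested genes positive and a median of 0.07. SdhA and SdhB, subunits of complex II, which has no mitochondrially encoded part, were among them at 0.91 ± 0.25 (SE, edgeR adjusted p = 0.00943) and 1.05 ± 0.26 (adjusted p = 0.00512). blw, the alpha subunit of the ATP synthase, rose by 1.05 ± 0.27 (adjusted p = 0.00537), with 2645, 2640 and 1704 CPM in paternal aub against 959, 1545 and 875 CPM in WT libraries. ND-51L1, a paralog of a complex I subunit gene at 1.81 to 5.68 CPM in paternal aub and 0.332 to 1.24 CPM in WT libraries, rose by 1.74 ± 0.60 (adjusted p = 0.0284). All blw values in paternal aub were above all WT values, where 45.2% of all tested genes did not overlap. The early embryo markers were lower and the hemocyte and most late embryo markers higher in the same contrast; among the late embryo markers the muscle genes Mhc (0.98 ± 0.25), Act57B (0.93 ± 0.33) and Mlp84B (0.76 ± 0.30) rose, as the subunits named here did. Their part in these values, and in those of the other nuclear lists, was not tested.

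Of 74 tested mitochondrial ribosomal proteins, 1 rose in batch 1 (mRpS5, 1.01 ± 0.38, edgeR adjusted p = 0.0436) and 0 fell, with a median of 0.07, equal to that of all genes. Of 18 genes for mitochondrial biogenesis and mass, 3 rose and 1 fell. Both counts stand against 43.5% of all tested genes called. fzo, a mitofusin known for its work in spermatids, rose by 2.31 ± 0.46 (adjusted p = 0.000996), with 11.9, 6.33 and 19.7 CPM in paternal aub against 2.96, 2.99 and 1.33 CPM in WT libraries. kdn, a citrate synthase, rose by 0.76 ± 0.24 (adjusted p = 0.0195) and Hsc70-5, a mitochondrial chaperone, by 0.60 ± 0.24 (adjusted p = 0.0493), while the fission factor Drp1 was lower by -0.68 ± 0.21 (adjusted p = 0.0167). Averaged over batches, fzo was the 1 gene of these 4 lists that was called (1.36 ± 0.37, adjusted p = 0.0252), where 14.5% of all tested genes were.

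In batch 2 none of these 4 lists had a called gene in any of the 3 comparisons by edgeR, including paternal against maternal aub, where 0 genes were called in all. For paternal aub against WT, 22 of 75 nuclear subunits were positive (median -0.06) while 10 of 12 mitochondrial genes were (median 0.84). For maternal aub against WT, 5 of 75 nuclear subunits were positive, with a median of -0.29, and 8 of 74 mitochondrial ribosomal proteins, with a median of -0.24, against 0.01 for all genes. For paternal against maternal aub, 70 of 75 nuclear subunits were positive with a median of 0.26, where the mitochondrial genes had a median of 1.03. Between the WT groups, batch 2 against batch 1, 3 upkeep genes rose and 3 fell, 2 ribosomal proteins rose and 3 fell, 5 nuclear subunits rose and 2 fell, and 1 biogenesis gene rose and 3 fell, of 21, 74, 75 and 18 tested, in a contrast where 40.1% of all tested genes were called. Early embryo markers were mostly lower in batch 2 in the same contrast (4 of 6 called lower, 1 higher, median -4.40), and their part was not tested. The largest changes among called genes of 3 lists were PolG1 at -1.65 ± 0.39 (edgeR adjusted p = 0.00353), mRpS14 at -1.60 ± 0.45 (adjusted p = 0.0107) and ewg, a homolog of a nuclear respiratory factor, at 1.70 ± 0.31 (adjusted p = 0.000687). Among nuclear subunits it was COX6AL at 4.21 ± 1.35 (adjusted p = 0.0221), with means of only 0.0823 CPM in batch 1 and 1.56 CPM in batch 2. ND-51L1 followed at 2.69 ± 0.65 (SE, adjusted p = 0.00451).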

How the data were processed

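Embryo RNA, labelled total RNA, was analysed from 12 libraries in 5 sets of group and batch. The authors deposited whole-number counts per gene; per the submitters' processing notes the builds were dm6 and BDGP6, and the tools included Subread 2.0.0 with featureCounts, SAMtools 1.8, Bowtie 1.2.3, and, for trimming, cutadapt and Trim Galore 0.5.0, whose use on the embryo libraries is not given. The labels give the small RNA library protocol for the embryos too, so the embryo protocol is not known here. The 13 members were matched by FlyBase identifier to symbols in the reference symbol table, because the name column writes them otherwise; coordinates are those of RefSeq. The members and lists were chosen with earlier results of these data known.

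Counts were fitted with edgeR 4.0.16 under R 4.3.3 (genes kept by filterByExpr, TMM scaling, the quasi-likelihood test with robust dispersions, and Benjamini-Hochberg adjustment over 10371 genes), with 1 mean per set and 1 shared spread; 12 of 13 members passed the filter. Each standard error was derived from the F statistic, as |log2 fold change| over its square root. CPM of single genes use TMM-scaled library sizes; summed shares and marker sums use all assigned counts and were compared by exact permutation within batches. Every member is named; of other lists, per contrast, the 4 called genes with the largest absolute log2 fold change were eligible. DESeq2 1.42.0 and the other settings are reported in the closing section. The script for the fit was tested on simulated data. The planned small RNA comparisons had 0 members and were not run. Batch 2 columns were matched to groups, not to single samples, and columns named for aub without a parent were taken as paternal because other columns account for both maternal samples. Replicates differed by more than counting error (chi-square per degree of freedom 25.9 to 83.0 in batch 1 and 3.94 to 17.3 in batch 2). The shared spread was estimated over both batches, so batch 2 tests also carry the spread of batch 1. The labels do not say that replicates came from separate crosses, so p-values may measure technical spread, and limits of 3 counts cover counting error only. Replicate numbers do not pair samples.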

Additional observations from a re-analysis of the deposited data

Results flagged for a closer look

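Among 54 sets of 5 libraries (13 genes in CPM and in percent of mitochondrial counts, and the summed share, in the paternal aub and the WT group), 3 held a library farther from the others than Dixon's 95% limit; chance flags about 1 in 20 such sets, and batches were pooled in each. mt:Cyt-b made up 9.80% of mitochondrial counts in paternal aub batch 2 replicate 2, above the other 4 paternal aub libraries. mt:ATPase8 was at 3.41 CPM in paternal aub batch 1 replicate 1, above the other 4 paternal aub libraries, from 18 counts. mt:ND4L was at 13.3 CPM in WT batch 1 replicate 2, above the other 4 WT libraries. PolG1, the mitochondrial DNA polymerase, is listed because its paternal aub difference from WT differed between the batches (log2 difference 1.55, edgeR adjusted p = 0.0455). This test called 20.2% of all tested genes. All 3 paternal aub libraries were below all 3 WT libraries in batch 1, where 45.2% of all tested genes did not overlap, and the PolG1 values overlapped in batch 2. No mitochondrial gene was called by edgeR or DESeq2 in the difference of the paternal aub effect between batches. In edgeR 0 of 12 had an unadjusted p under 0.05, against 3470 of all 10371 tested genes.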

How the results depend on the processing

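All 7 counts of called members were 0 and stayed at 0 under total counts without TMM, without the low-count filter and without both WT libraries numbered 1 (the last chosen after seeing the data, and not run for paternal against maternal aub). A further 2 settings moved a count to 1: DESeq2 for paternal aub against WT averaged over batches (mt:Cyt-b), and only the libraries of the contrast for paternal against maternal aub (mt:CoII). Leaving out 1 library gave 0 to 3 called members for paternal aub against WT in batch 1 and averaged over batches, and 0 to 2 for WT batch 2 against batch 1, each time through WT batch 1 replicate 2. Without that library 5526 of 10298 tested genes were called for paternal aub against WT in batch 1, and 3197 averaged over batches. Summed shares kept their direction, at 0.19 to 0.91 (paternal aub) and -0.70 to -0.13 (maternal aub) on the log2 scale. The paternal aub range also takes in the difference between batches, because leaving out a library made the batches unequal between the groups.

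Of 84 fitted member values over the 7 comparisons, 43 changed sign when some 1 library was left out and 19 under another setting; the cause was not tested. In paternal aub against WT, leaving out 1 library gave -1.02 to 1.24 for mt:ND4L in batch 1, -1.10 to 1.68 for mt:ND2 and -2.75 to 0.88 for mt:ND6 in batch 2, and, averaged over batches, -0.31 to 1.09 for mt:ND2, -0.69 to 2.78 for mt:ND3, -0.13 to 3.70 for mt:ND4L and -1.16 to 0.67 for mt:ND6. mt:ND4L in batch 1 was 0.0095 with DESeq2 and 0.040 with the replicate block; mt:ND2 averaged over batches was -0.028 without TMM and -0.56 without both WT libraries numbered 1. Without TMM the median of all genes in batch 1 was -0.15, in place of 0.07, and that of the members 0.22, in place of 0.46.

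Replicate numbers did not pair the samples (correlations of same-numbered libraries from -0.0948 to 0.0698). With the replicate block the members called stayed at 0 in the 5 comparisons where it could be fitted. All-gene calls with the block (main fit in brackets) were 3173 (4516) for paternal aub against WT in batch 1 and 31 (2) in batch 2. They were 1420 (1507) averaged over batches, 125 (7) for maternal aub against WT and 102 (0) for paternal against maternal aub. Except averaged over batches, the block was fitted to 1 batch only, so the block and the libraries used changed together. Without the block, the batch 1 libraries alone gave 3277 calls for paternal aub against WT. All-gene calls averaged over batches were 6 with no batch term, 33 with an additive one and 107 without both WT libraries numbered 1; with only the libraries of the contrast they were 85 for paternal and 392 for maternal aub against WT in batch 2. DESeq2 called 24 genes for maternal aub against WT, against 7, and 5 for paternal against maternal aub, against 0, where the 4 libraries alone gave 67. Leaving out 1 library gave 182 to 3197 calls averaged over batches, 792 to 3611 (2092) for the difference between batches, 1932 to 4965 (4157) for WT batch 2 against batch 1, and 1 to 4 (7) for maternal aub against WT; without both WT libraries numbered 1 these last 3 became 823, 2038 and 1. The alternatives planned for small RNA were not run. Depth limits mt:ATPase8, mt:ND4L, mt:ND3 and mt:ND6 most, each with under 20 counts in some library.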
